A study of Rattus norvegicus with 16 samples.

Results

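The genes described here encode the folding, quality control and export machinery of the endoplasmic reticulum (ER). They were chosen by name, with earlier results of these data known, as 44 genes for ER chaperones, the unfolded protein response, the COPII coat and collagen export. Of these, 43 had an array row naming them among the 17245 genes measured, and Mia3 did not. RNA came from the cells left adhering to commercially pure titanium implants after these were taken out of the tibiae of male Sprague Dawley rats and rinsed, and it was hybridised to Affymetrix Rat Gene 1.1 ST arrays. The 4 groups were AT-I (a surface with nanoscale features) at day 4, AT-II (a microrough surface lacking them) at day 4, AT-I at day 2 and AT-II at day 2 after placement, with 4 rats per day. In every rat one leg received AT-I and the opposite leg AT-II, and the 2 implants of a leg together gave 1 sample. All rats had the same surgery and were given ketoprofen afterwards, and their age is not given in the sources used here. The samples held a mixture of whatever cells adhered.

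Proteins destined for secretion enter the ER through the Sec61 channel, fold with the help of Hsp-type chaperones, lectins and disulfide isomerases, and leave in vesicles coated with COPII proteins. Procollagen, the main cargo of bone-forming cells, needs in addition prolyl hydroxylases, peptidyl-prolyl isomerases and the collagen chaperone encoded by Serpinh1. Sensors in the ER membrane, encoded by Ern1, Eif2ak3 and Atf6, start the unfolded protein response when unfolded proteins build up, while Creb3l1 (OASIS) encodes a membrane-bound transcription factor known in mice to drive type I collagen expression in osteoblasts.

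All values are log2 expression, and each difference is a difference of log2 means with its standard error (SE) from limma. The 2 arrays labelled AT-II day 2 replicates 2 and 3 were closer to each other than any other of the 120 pairs of arrays. Over 3043 bright rows the SD of their difference was 0.085, while the next closest pair had 0.291, so they were averaged and counted as 1 sample. AT-II day 2 therefore had n = 3, the other groups had n = 4, and 15 samples entered each fit. Which replicates came from the same rat is not given in the labels, so the surfaces were compared without pairing. Both surfaces were placed in the same rats, so their time courses are not independent repeats, although the fit treated all samples as independent. Precision is set by the small number of arrays and is also affected by the unused pairing. In such mixed samples fewer cells of a type and less RNA per cell cannot be told apart.

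Between day 2 and day 4 the secretory genes did not move together. On AT-I, 15 of the 43 members rose, 1 fell (Ddit3) and 27 did not pass an adjusted p of 0.05 (34.9% higher, against 8.84% of all genes; 2.33% lower, against 2.66% of all genes). On AT-II, 12 of 43 rose, 0 fell and 31 did not pass (27.9% higher, against 3.13% of all genes; 0% lower, against 0.203% of all genes). Of the members that rose on AT-I, 7 belonged to procollagen folding and proline modification and 7 to the translocon, COPII coat and retrieval group, and the remaining one was Creb3l1. The median difference over members was 0.17 on AT-I (0.01 to 0.18 over 12 other settings) and 0.0003 on AT-II (-0.11 to 0.04), against -0.05 over all genes on each surface, and against 0.09 on AT-I and -0.04 on AT-II over genes with a mean of at least 6. Centring each array on its median shifted every difference by the same amount, taking the all-gene median to -0.21 on AT-I and -0.16 on AT-II. The share of called genes that were higher was 76.9% on AT-I and 93.9% on AT-II, against 39.7% and 72.2% after centring and 65.6% and 88.6% after a repeated quantile normalization. Members called numbered 14 to 16 on AT-I over all 27 other settings tried, and 3 to 14 on AT-II.

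**Figure D1:**
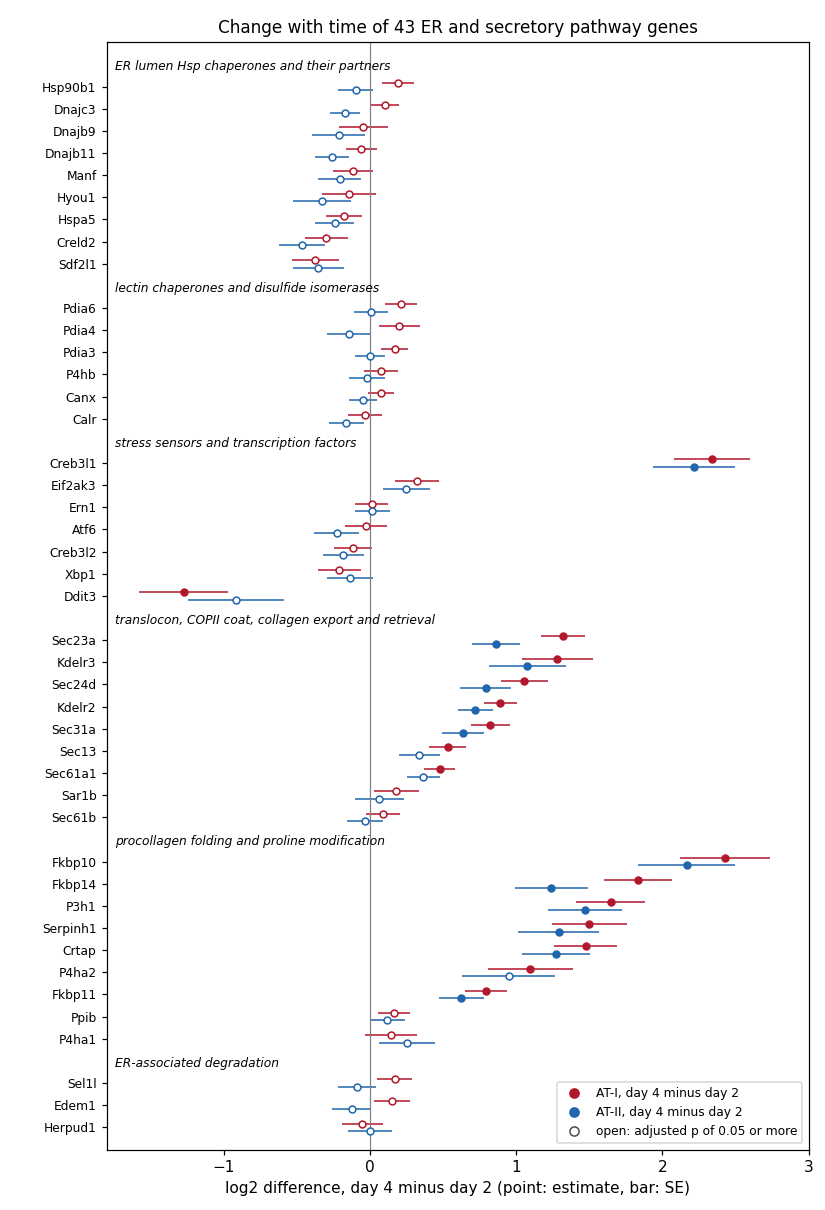
Difference between day 4 and day 2 (log2, point and SE) for each of the 43 measured members, grouped by role, with AT-I in red and AT-II in blue and open points for members that did not pass. The procollagen group reaches 2.43 and the ER lumen chaperones lie between -0.47 and 0.19.

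Procollagen folding and proline modification held Fkbp10, the member with the largest difference on AT-I, and rose in most of its genes. On AT-I, 7 of its 9 genes rose and none fell, with a median difference of 1.47, and on AT-II 6 of 9 rose, with a median of 1.24. Fkbp10 encodes an ER peptidyl-prolyl isomerase that acts on type I procollagen and is mutated in a recessive form of osteogenesis imperfecta in people. Its expression was 10.90, 10.64, 10.65 and 10.79 in AT-I day 4 samples, against 7.5, 8.42, 8.94 and 8.39 in AT-I day 2 samples. On AT-II it was 11.08, 10.75, 10.92 and 10.50 at day 4, against 7.76, 8.75 and 9.43 at day 2. Every day 4 sample lay above every day 2 sample on both surfaces, and the lowest values belonged to the day 2 samples numbered 1. The difference was 2.43 ± 0.31 (SE) on AT-I (a 5.38-fold rise, limma adjusted p = 0.000128) and 2.17 ± 0.33 on AT-II (4.49-fold, adjusted p = 0.00129).

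Crtap and P3h1 encode cartilage-associated protein and the prolyl 3-hydroxylase that together modify proline in fibrillar collagen chains, in a complex with the cyclophilin encoded by Ppib. P3h1 stood at 9.36, 9.0, 9.02 and 9.05 in AT-I day 4 samples, against 6.68, 7.64, 7.87 and 7.64 in AT-I day 2 samples. It stood at 9.46, 9.31, 9.24 and 9.06 in AT-II day 4 samples, against 7.28, 7.81 and 8.30 in AT-II day 2 samples. Both AT-I groups and both AT-II groups were apart for P3h1. Crtap stood at 9.84, 9.64, 9.69 and 9.63 in AT-I day 4 samples, against 7.55, 8.37, 8.62 and 8.36 in AT-I day 2 samples. It stood at 10.03, 9.60, 10.05 and 9.65 in AT-II day 4 samples, against 8.18, 8.46 and 9.04 in AT-II day 2 samples. The days did not overlap for Crtap either. P3h1 rose by 1.65 ± 0.24 on AT-I (adjusted p = 0.000345) and 1.47 ± 0.26 on AT-II (adjusted p = 0.00356), and Crtap rose by 1.47 ± 0.22 (adjusted p = 0.000414) and 1.27 ± 0.23 (adjusted p = 0.00555). Ppib, whose product completes the complex, differed by 0.16 ± 0.11 on AT-I (adjusted p = 0.347) and 0.12 ± 0.12 on AT-II (adjusted p = 0.773). It was bright at both days, averaging 11.86 ± 0.11 (SD, n = 4) at day 4 and 11.70 ± 0.20 (n = 4) at day 2 on AT-I.

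Serpinh1 encodes the chaperone that binds the procollagen triple helix. It stood at 11.97, 11.63, 11.87 and 11.80 in AT-I day 4 samples, against 9.57, 10.31, 11.06 and 10.33 in AT-I day 2 samples, a rise of 1.5 ± 0.26 (2.83-fold, adjusted p = 0.00129). On AT-II it stood at 12.05, 11.92, 12.01 and 11.51 at day 4, against 10.19, 10.46 and 11.11 at day 2, a rise of 1.29 ± 0.28 (adjusted p = 0.0153). The groups did not overlap, and the day 2 samples ranged over more than 1 log2 unit on AT-I. Fkbp14, another ER isomerase linked to collagen folding, rose by 1.83 ± 0.23 on AT-I (9.38 ± 0.26 at day 4, 7.54 ± 0.36 at day 2, adjusted p = 0.000125) and by 1.24 ± 0.25 on AT-II (9.35 ± 0.31 at day 4, 8.11 ± 0.52 at day 2, adjusted p = 0.0102). Fkbp11, an ER isomerase of the same family whose substrates are less certain, rose by 0.79 ± 0.14 on AT-I (adjusted p = 0.00201) and 0.62 ± 0.15 on AT-II (adjusted p = 0.0357).

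Prolyl 4-hydroxylases hydroxylate proline along the collagen chains so that the helix is stable at body temperature. P4ha2, the alpha subunit of one isoform, stood at 7.32, 7.34, 8.13 and 7.20 in AT-I day 4 samples, against 5.82, 6.19, 7.04 and 6.55 in AT-I day 2 samples, a rise of 1.10 ± 0.29 (adjusted p = 0.0236). On AT-II its difference was 0.95 ± 0.32 (adjusted p = 0.149), and the days overlapped. It passed on AT-II with array weights (0.84, adjusted p = 0.0436) and when AT-II day 2 replicate 4 was left out (1.26, adjusted p = 0.0473). P4ha1, the alpha subunit of the other common isoform, stood at 10.56, 10.22, 10.69 and 10.58 in AT-I day 4 samples, against 10.84, 9.91, 10.63 and 10.09 in AT-I day 2 samples, with a difference of 0.15 ± 0.18 (adjusted p = 0.611) whose 95% interval ran from -0.23 to 0.52. P4hb, the beta subunit shared by these enzymes and also a disulfide isomerase, differed by 0.07 ± 0.12 on AT-I (adjusted p = 0.702) and -0.02 ± 0.12 on AT-II (adjusted p = 0.971). The call for P4ha2 on AT-I was lost without AT-I day 2 replicate 1 (0.90, adjusted p = 0.0777).

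**Figure D2:**
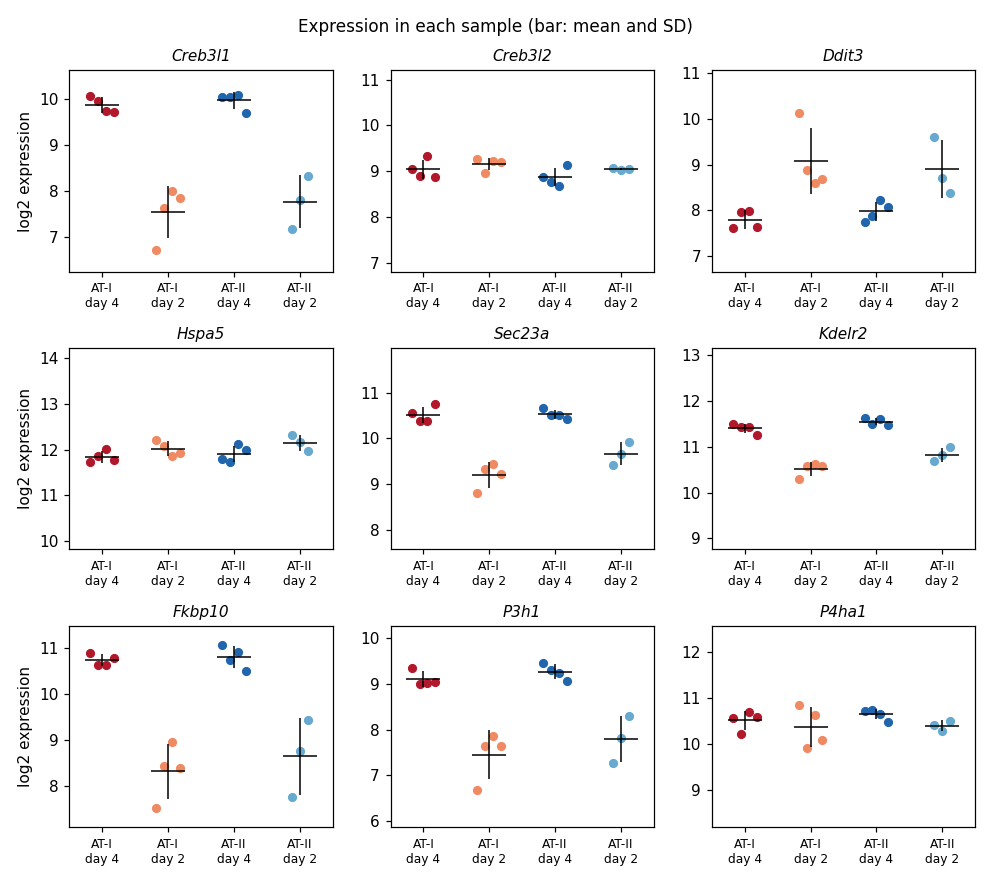
Log2 expression of 9 members in each sample, with group mean and SD, in the order AT-I day 4, AT-I day 2, AT-II day 4, AT-II day 2, every panel spanning the same number of log2 units. Creb3l1, Sec23a, Kdelr2, Fkbp10 and P3h1 are higher in every day 4 sample than in any day 2 sample of the same surface, Ddit3 is lower, and Creb3l2, Hspa5 and P4ha1 overlap.

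Export genes also rose. In the translocon, COPII coat and retrieval group 7 of 9 measured genes rose on AT-I (median 0.82) and 5 of 9 rose on AT-II (median 0.64), and none fell. Sec23a and Sec24d encode the inner COPII coat subunits that gather cargo, and loss of either disturbs collagen secretion and the skeleton in fish or people. Sec23a stood at 10.56, 10.38, 10.38 and 10.75 in AT-I day 4 samples, against 8.80, 9.34, 9.44 and 9.22 in AT-I day 2 samples. It stood at 10.66, 10.50, 10.52 and 10.43 in AT-II day 4 samples, against 9.42, 9.65 and 9.93 in AT-II day 2 samples. The gap between the days on AT-I, nearly a full log2 unit at its narrowest, was wider than the whole spread within either day. Sec23a rose by 1.32 ± 0.15 on AT-I (2.49-fold, adjusted p = 6.94e-05) and 0.86 ± 0.16 on AT-II (1.82-fold, adjusted p = 0.00635).

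Sec24d stood at 10.15, 9.75, 10.01 and 10.11 in AT-I day 4 samples, against 8.75, 8.81, 9.30 and 8.93 in AT-I day 2 samples, and rose by 1.06 ± 0.16 (adjusted p = 0.000522). On AT-II the rise was 0.79 ± 0.17 (10.04 ± 0.16 at day 4, n = 4, and 9.25 ± 0.33 at day 2, n = 3, adjusted p = 0.0172). Of the outer coat subunits, Sec31a rose by 0.82 ± 0.13 on AT-I (adjusted p = 0.000876) and 0.64 ± 0.14 on AT-II (adjusted p = 0.0214). Sec13 rose by 0.53 ± 0.13 on AT-I (adjusted p = 0.0137), and its difference was 0.34 ± 0.14 on AT-II (adjusted p = 0.287). Sar1b, a form of the GTPase that starts coat assembly, differed by 0.18 ± 0.16 on AT-I (adjusted p = 0.463) and 0.06 ± 0.17 on AT-II (adjusted p = 0.937). Its relative Sar1a, not a member, rose by 0.55 on AT-I, and its difference was 0.29 on AT-II, where it did not pass.

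Kdelr2 and Kdelr3 encode receptors that return escaped ER proteins from the Golgi. Kdelr2 stood at 11.49, 11.44, 11.43 and 11.26 in AT-I day 4 samples, against 10.29, 10.57, 10.62 and 10.58 in AT-I day 2 samples, a rise of 0.89 ± 0.11 (adjusted p = 0.00012). On AT-II it stood at 11.62, 11.49, 11.61 and 11.47 at day 4, against 10.69, 10.81 and 10.99 at day 2, a rise of 0.72 ± 0.12 (adjusted p = 0.00257). Samples of 1 day differed little for this gene, with an SD between 0.08 and 0.15 in the 4 groups. Kdelr3 rose by 1.28 ± 0.25 on AT-I (9.15 ± 0.31 at day 4, 7.87 ± 0.58 at day 2, adjusted p = 0.00304) and by 1.08 ± 0.27 on AT-II (adjusted p = 0.0346).

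At the entry to the ER, Sec61a1, the pore-forming subunit of the Sec61 channel, stood at 11.16, 11.11, 11.04 and 10.99 in AT-I day 4 samples, against 10.61, 10.77, 10.46 and 10.54 in AT-I day 2 samples. It rose by 0.48 ± 0.11 on AT-I (adjusted p = 0.00854), and its difference was 0.36 ± 0.12 on AT-II (adjusted p = 0.121), where the days did not overlap either. On AT-II it passed with array weights (0.39, adjusted p = 0.0206) and with all 16 arrays counted separately, without a replicate block (adjusted p = 0.0365) and with one (adjusted p = 0.0352). Sec61b, a small subunit of the channel, differed by 0.09 ± 0.11 (adjusted p = 0.631) and -0.04 ± 0.12 (adjusted p = 0.953). After centring each array, the AT-I differences of Sec61a1 (0.32, adjusted p = 0.0838) and Sec13 (0.37, adjusted p = 0.0637) no longer passed.

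On AT-I the rises of 12 members (Creb3l1, Sec23a, Sec24d, Sec31a, Kdelr2, Kdelr3, Serpinh1, Fkbp10, Fkbp11, Fkbp14, Crtap and P3h1) passed under every one of the 27 other settings. The 12 genes that rose on AT-II were these, and there Creb3l1 and Fkbp10 alone passed under all 27. Leaving out AT-II day 2 replicate 1 left 4 members called on AT-II (Creb3l1, Kdelr2, Fkbp10 and P3h1), and the others then ranged from 0.54 for Sec31a (adjusted p = 0.159) to 1.09 for Serpinh1 (adjusted p = 0.122). Leaving out the averaged AT-II day 2 sample, or AT-II day 4 replicate 1, left 7 members called. AT-II day 2 replicate 1 was the lowest of its group for 11 of the 12 members that rose on AT-II, and AT-I day 2 replicate 1 was the lowest of its group for 13 of the 15 that rose on AT-I.

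The chaperones of the ER lumen did not share these rises. None of the 9 passed on either surface, the median difference was -0.12 on AT-I and -0.24 on AT-II, and all 95% intervals lay between -0.72 and 0.43 on AT-I and between -0.80 and 0.17 on AT-II. Hspa5 encodes BiP, the main Hsp70 of the ER and the usual marker of the unfolded protein response. It stood at 11.73, 11.85, 12.01 and 11.76 in AT-I day 4 samples, against 12.22, 12.08, 11.86 and 11.92 in AT-I day 2 samples. It stood at 11.79, 11.73, 12.11 and 11.98 in AT-II day 4 samples, against 12.32, 12.15 and 11.97 in AT-II day 2 samples. The days overlapped on both surfaces, and the differences were -0.18 ± 0.13 (adjusted p = 0.358; 95% interval -0.45 to 0.09) and -0.24 ± 0.14 (adjusted p = 0.495; -0.53 to 0.045). These intervals do not reach the size of the rises of Fkbp10 or Sec23a, although they leave room for a modest fall.

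Hsp90b1, the Hsp90 of the ER, differed by 0.19 ± 0.11 on AT-I (adjusted p = 0.278) and -0.10 ± 0.12 on AT-II (adjusted p = 0.82). Of the 9 lumen genes, Sdf2l1 and Creld2 had the most negative values on both surfaces. Sdf2l1, whose product partners cochaperones of BiP, had -0.37 ± 0.16 on AT-I (adjusted p = 0.144) and -0.35 ± 0.17 on AT-II (adjusted p = 0.414), and Creld2 had -0.30 ± 0.15 (adjusted p = 0.194) and -0.47 ± 0.16 (adjusted p = 0.16). Sdf2l1 passed on AT-I under 1 other setting, centred arrays, at -0.53 (adjusted p = 0.0463). Hyou1, a large Hsp70 relative, was -0.14 ± 0.18 on AT-I and -0.33 ± 0.20 on AT-II, and the J-domain cochaperones Dnajb9, Dnajb11 and Dnajc3 lay between -0.26 and 0.10. Manf, a secreted ER stress-responsive protein, was -0.12 ± 0.14 and -0.21 ± 0.15. Every day 4 value was below every day 2 value on AT-II for 5 of these 9 genes (Dnajb11, Dnajc3, Sdf2l1, Manf and Creld2), and over all 43 members this was so for 7 on AT-II (16.3%, against 7.63% of all genes) and for 1 on AT-I (2.33%, against 4.01% of all genes). In the other direction, days without overlap and day 4 higher, there were 14 members on AT-II (32.6%, against 8.74% of all genes) and 15 on AT-I (34.9%, against 11.3% of all genes).

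The lectin chaperones and disulfide isomerases were bright, and their differences were small. None of the 6 passed on either surface, and their differences lay between -0.04 and 0.21 on AT-I and between -0.16 and 0.01 on AT-II. Calr, which encodes the soluble lectin chaperone calreticulin, averaged 11.71 ± 0.07 at day 4 and 11.75 ± 0.16 at day 2 on AT-I (SD, n = 4 each), and Canx, its membrane-bound counterpart calnexin, averaged 11.99 ± 0.05 and 11.91 ± 0.07. Pdia3, the isomerase that works with these lectins, averaged 12.28 ± 0.04 at day 4 and 12.12 ± 0.12 at day 2 on AT-I, and 12.28 ± 0.01 at day 4 and 12.28 ± 0.07 at day 2 on AT-II. Pdia6 differed by 0.21 ± 0.11 on AT-I (adjusted p = 0.216) and Pdia4, another isomerase, by 0.20 ± 0.14 (adjusted p = 0.357). With array interquartile range as a covariate Pdia4 passed on AT-I, at 0.42 (adjusted p = 0.0488). The 3 genes of ER-associated degradation did not pass either: Sel1l, the adaptor of the ubiquitin ligase complex, differed by 0.17 ± 0.12 on AT-I and -0.09 ± 0.13 on AT-II, Edem1, which helps to select misfolded glycoproteins, by 0.15 ± 0.12 and -0.13 ± 0.13, and Herpud1, a stress-induced scaffold of the complex, by -0.05 ± 0.14 and 0.0003 ± 0.15.

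Among the stress sensors and transcription factors 1 gene rose on both surfaces and 1 fell on AT-I. Creb3l1 stood at 10.08, 9.96, 9.74 and 9.72 in AT-I day 4 samples, against 6.71, 7.61, 7.99 and 7.84 in AT-I day 2 samples. It stood at 10.06, 10.05, 10.09 and 9.71 in AT-II day 4 samples, against 7.16, 7.80 and 8.32 in AT-II day 2 samples. The lowest day 4 sample exceeded the highest day 2 sample by more than 1 log2 unit on each surface. The rise was 2.34 ± 0.26 on AT-I (5.06-fold, adjusted p = 5.36e-05) and 2.22 ± 0.28 on AT-II (4.65-fold, adjusted p = 0.000286). Without both day 2 samples numbered 1 it was 2.06 (adjusted p = 1.29e-05) and 1.92 (adjusted p = 0.000212).

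Ddit3 encodes CHOP, the transcription factor induced late in ER stress through the Eif2ak3 branch and by other stresses. It stood at 7.61, 7.96, 7.99 and 7.63 in AT-I day 4 samples, against 10.13, 8.89, 8.59 and 8.68 in AT-I day 2 samples. It stood at 7.74, 7.88, 8.22 and 8.07 in AT-II day 4 samples, against 9.61, 8.71 and 8.38 in AT-II day 2 samples. All day 4 values were below all day 2 values of the same surface, and the day 2 samples numbered 1 were the highest. On AT-I it fell, with a difference of -1.28 ± 0.30 (2.42-fold lower, adjusted p = 0.0124), and on AT-II the difference was -0.92 ± 0.33 (adjusted p = 0.187). The AT-I value was -0.92 without both day 2 samples numbered 1 (adjusted p = 0.00206), and it missed the threshold when array interquartile range was added as a covariate (-1.10, adjusted p = 0.0713). The AT-II value, unchanged at -0.92, passed when AT-I day 2 replicate 1 was left out of the shared fit (adjusted p = 0.0358).

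The 3 sensors did not pass on either surface. Ern1 (IRE1) averaged 7.49 ± 0.16 at day 4 and 7.48 ± 0.13 at day 2 on AT-I, a difference of 0.01 ± 0.11 (adjusted p = 0.964), and was 0.01 ± 0.12 on AT-II (adjusted p = 0.982). Atf6 differed by -0.03 ± 0.14 (adjusted p = 0.915) and -0.23 ± 0.15 (adjusted p = 0.603), and Eif2ak3 (PERK) by 0.32 ± 0.15 (adjusted p = 0.177) and 0.25 ± 0.16 (adjusted p = 0.592). Xbp1, the transcription factor whose RNA is spliced by IRE1, differed by -0.21 ± 0.15 on AT-I (adjusted p = 0.351) and -0.14 ± 0.16 on AT-II (adjusted p = 0.8). These rows report the level of a gene's RNA and say nothing of its splicing or of the cleavage of the encoded proteins. Creb3l2 (BBF2H7), the closest relative of Creb3l1 and known in mice from cartilage secretion, differed by -0.12 ± 0.13 (adjusted p = 0.578) and -0.18 ± 0.14 (adjusted p = 0.666) in its brighter row. Its other row averaged 8.55 ± 0.13 at day 4 and 8.00 ± 0.20 at day 2 on AT-I, and 8.68 ± 0.09 at day 4 and 8.28 ± 0.09 at day 2 on AT-II, so the 2 rows of this gene disagree in direction.

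**Figure D3:**
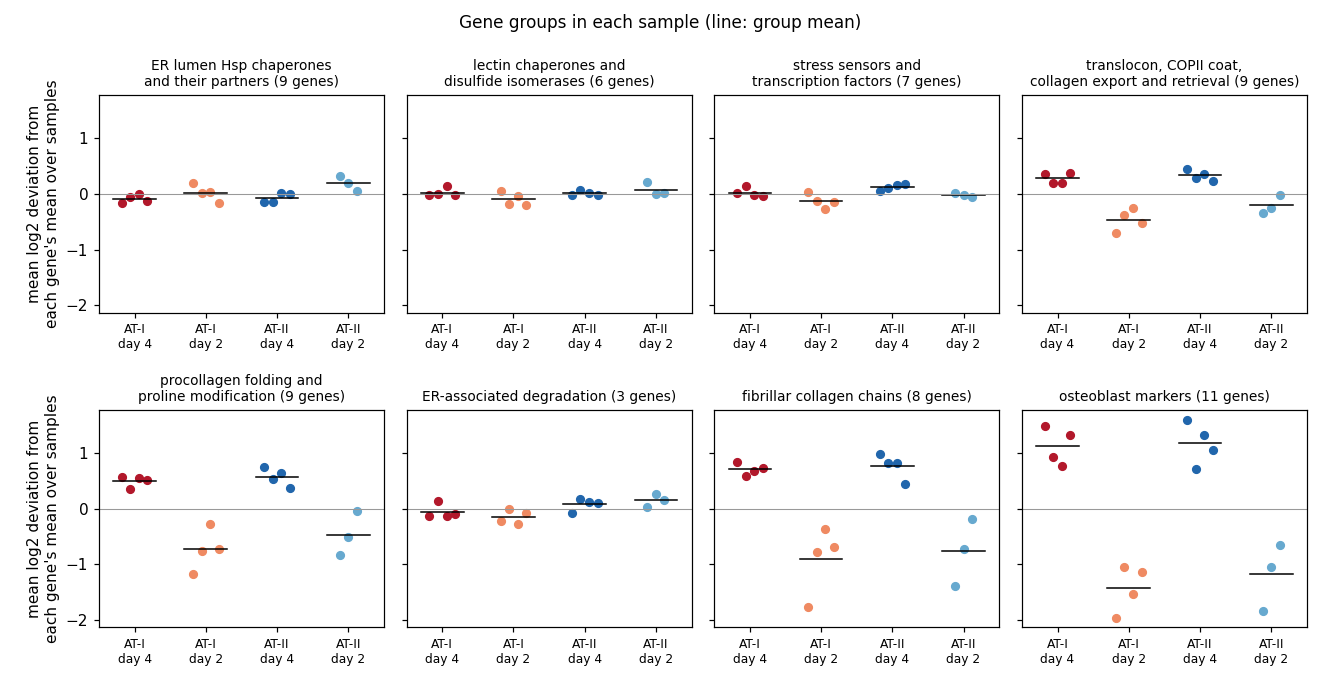
Mean deviation in log2 units of the genes of each role group, the fibrillar collagen chains and the osteoblast markers from each gene's mean over the 15 samples, 1 point per sample. Export, procollagen, fibrillar collagen and osteoblast panels separate the days on both surfaces, and the lowest day 2 point of each of these panels is a sample numbered 1.

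Among promoters, ER stress response elements were found in members that were not called. The ER stress response element (ERSE) is the sequence to which the Atf6 product and its partner NF-Y are known to bind in mammals. It was searched as CCAAT, any 9 bases and CCACG, together with its variant ERSE-II (ATTGG, any 1 base and CCACG), the element TGACGTGG known as UPRE and the cyclic AMP response element TGACGTCA. Both strands were searched and overlaps were allowed. RefSeq promoter windows of the GRCr8 assembly (250 bases before to 50 after the start, the first listed start of each gene) were matched for 34 of the 43 members. ERSE occurred in 7 of 34 members (20.6%) and in 0.0765% of the 27457 windows of all genes, ERSE-II in 3 of 34 (8.82%) and in 0.0546%, UPRE in 3 of 34 (8.82%) and in 0.637%, and the cyclic AMP response element in 0 of 34 and in 1.91%. The 10 members with ERSE or ERSE-II were Hspa5, Hsp90b1, Creld2, Canx, Xbp1, Dnajc3, Calr, Hyou1, Dnajb11 and Herpud1, and none of them was called on either surface. None of the 11 members that rose on AT-I and had a window held either element, and 2 of them, Sec23a and Kdelr3, held UPRE. Of members with a window, 22 were not called on AT-I, and Fkbp10, Sec24d, Kdelr2 and Sec61a1, which rose there, had no window. The matches followed role: of 8 windows of ER lumen chaperones, 4 held ERSE and 2 held ERSE-II. A link between element and call was not tested. A match is a description of the letters and not evidence of binding, and the motif was defined in other mammals from promoters of genes of this kind.

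The matched ERSE sites of 5 members are shown because this element was found in members that were not called, with the fixed letters in capitals and each read along the motif.
Hspa5: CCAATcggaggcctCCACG
Hsp90b1, farther site: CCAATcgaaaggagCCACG
Hsp90b1, nearer site: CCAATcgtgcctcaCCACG
Calr: CCAATcagggtcgaCCACG
Xbp1: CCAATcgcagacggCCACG
Dnajc3: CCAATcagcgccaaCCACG
The Hsp90b1 sites lay 176 and 72 bases before the start, the nearer one on the opposite strand of the gene. The Hspa5 site lay at chr3:38452973-38452991 on the plus strand, 43 bases before the start, and the Xbp1 site at chr14:84604558-84604576 on the plus strand, 65 bases before the start. The whole Hspa5 window (chr3:38452766-38453065, plus strand) stands beside those of Creb3l1 (chr3:98449055-98449354, minus strand), the regulator that rose, whose window held none of the 4 elements, and Sec23a (chr6:82440855-82441154, minus strand), which rose and held UPRE in capitals.
Hspa5: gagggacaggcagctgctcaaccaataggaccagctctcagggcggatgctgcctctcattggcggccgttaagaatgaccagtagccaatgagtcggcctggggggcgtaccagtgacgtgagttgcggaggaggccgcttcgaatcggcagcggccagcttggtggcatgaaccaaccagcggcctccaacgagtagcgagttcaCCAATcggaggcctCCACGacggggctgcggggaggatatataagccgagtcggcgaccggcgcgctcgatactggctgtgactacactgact
Creb3l1: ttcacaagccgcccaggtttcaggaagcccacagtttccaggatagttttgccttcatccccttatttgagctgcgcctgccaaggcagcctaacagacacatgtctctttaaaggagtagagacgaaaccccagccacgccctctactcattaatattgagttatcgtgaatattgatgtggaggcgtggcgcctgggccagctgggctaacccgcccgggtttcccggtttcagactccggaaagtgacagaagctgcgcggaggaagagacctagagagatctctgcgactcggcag
Sec23a: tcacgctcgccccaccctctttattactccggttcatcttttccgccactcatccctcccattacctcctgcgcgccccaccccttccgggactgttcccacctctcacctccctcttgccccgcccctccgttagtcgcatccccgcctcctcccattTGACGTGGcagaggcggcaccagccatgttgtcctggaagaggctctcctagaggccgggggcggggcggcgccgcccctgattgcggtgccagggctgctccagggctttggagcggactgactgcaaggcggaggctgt

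The changes of close relatives are set beside those of the members as a description, since the pairs were chosen with the results known. An exact permutation test of the difference in change within each of 20 pairs gave 0 with an adjusted p under 0.05 on either surface. On AT-II the smallest p possible with these samples was 0.0571, so no pair there could pass. Sec23b, which encodes the other form of the coat subunit made from Sec23a and is mutated in a human anemia, differed by -0.04 on AT-I and -0.31 on AT-II, where Sec23a differed by 1.32 and 0.86. Sec31b, the relative of Sec31a, differed by -0.38 and 0.18. P3h2, a relative of P3h1, differed by 0.21 and -0.09, while P3h3, another, differed by 1.22 and 0.99. Among the Sec24 genes, which encode alternative cargo adaptors, Sec24a differed by 0.63 and 0.55, Sec24b by 0.08 and 0.01, and Sec24c by 0.01 and -0.14, beside 1.06 and 0.79 for Sec24d. Kdelr1, the third retrieval receptor gene, differed by 0.76 and 0.53, beside 0.89 and 0.72 for Kdelr2 and 1.28 and 1.08 for Kdelr3. Sec61a2 differed by 0.49 and 0.07, beside 0.48 and 0.36 for Sec61a1.

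The other genes of the pathway, in 10 lists that were drawn up with earlier results of these data known, were followed in the same fit, and none of their genes fell on either surface. The counts stand beside 8.84% of all genes called higher on AT-I and 3.13% on AT-II. Fibrillar collagen chains, the cargo of the procollagen machinery, rose in 7 of 8 cases on AT-I (median 1.61) and 6 of 8 on AT-II (median 1.51). Col11a1 rose by 2.69 ± 0.33 on AT-I (adjusted p = 0.000104) and 2.65 ± 0.35 on AT-II (adjusted p = 0.000422), and Col5a2 by 2.14 ± 0.35 (adjusted p = 0.00101) and 1.96 ± 0.38 (adjusted p = 0.00784). Other collagen modifying enzymes rose in 5 of 10 cases on AT-I and 3 of 10 on AT-II, among them the lysyl hydroxylase gene Plod2 (1.70 ± 0.27, adjusted p = 0.0007, and 1.55 ± 0.29, adjusted p = 0.00635) and P3h4, whose product assists lysine hydroxylation (2.14 ± 0.35, adjusted p = 0.000869, and 1.70 ± 0.37, adjusted p = 0.0184).

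Of 29 other ER folding genes 11 rose on AT-I and 5 on AT-II. Those named here were taken by smallest p: Fkbp7 by 2.28 ± 0.30 and 2.05 ± 0.32, Fkbp9 by 1.93 ± 0.25 and 1.44 ± 0.27, and Rcn1 by 1.17 ± 0.17 and 0.95 ± 0.18 (adjusted p = 0.00635 or less for each on both surfaces). Fkbp7 also had the largest difference of the list on both surfaces. Fkbp7 and Fkbp9 encode isomerases and Rcn1 a calcium-binding protein of the lumen. Rcn3, a relative of Rcn1, rose by 2.14 ± 0.38 on AT-I (adjusted p = 0.00171) and 2.0 ± 0.41 on AT-II (adjusted p = 0.0104). COPI and Golgi genes rose in 9 of 15 cases on AT-I and 2 of 15 on AT-II, including Golgb1, the Golgi tether giantin, by 0.89 ± 0.13 (adjusted p = 0.000522) and 0.60 ± 0.15 (adjusted p = 0.0332). Further COPII and ER to Golgi cargo genes rose in 9 of 24 and 3 of 24 cases, among them the cargo receptor gene Lman1 by 1.08 ± 0.12 (adjusted p = 5.9e-05) and 0.69 ± 0.13 (adjusted p = 0.00635). Targeting and translocation genes rose in 4 of 18 cases on AT-I, with Ssr1 at 0.56 ± 0.09 (adjusted p = 0.000775), and in 0 of 18 on AT-II, where 0.29 for Ssr2 was the value with the smallest p (adjusted p = 0.248). N-glycosylation genes rose in 4 of 14 and 1 of 14 cases. Other degradation genes rose in 2 of 18 (Erlec1 and Selenos) and 0 of 18, near the shares of all genes.

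Of 17 genes known as targets of ATF4 and CHOP, 1 rose on AT-I (Nupr1, 1.22 ± 0.35, adjusted p = 0.0336) and 0 on AT-II, which is near the shares of all genes called higher (8.84% and 3.13%), the median being -0.25 and -0.31. Trib3, induced by CHOP, was -0.98 ± 0.32 on AT-I (adjusted p = 0.0576) and -0.81 ± 0.34 on AT-II (adjusted p = 0.314). Among 5 further genes of the ATF6 and OASIS family and their activating proteases, 2 rose on AT-I, the protease genes Mbtps2 (0.57 ± 0.15, adjusted p = 0.0196) and Mbtps1 (0.38 ± 0.11, adjusted p = 0.0447), and 0 on AT-II, where they stood at 0.10 ± 0.16 and 0.15 ± 0.12.

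**Figure D4:**
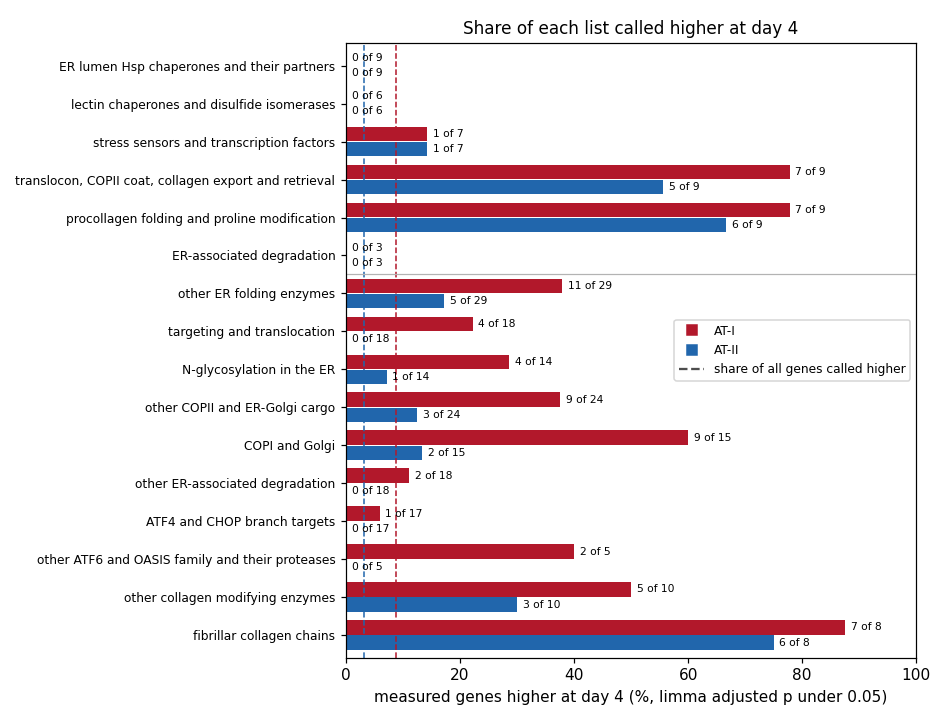
Percent of measured genes called higher at day 4 (limma adjusted p under 0.05) in each role group of the members and in 10 related lists, AT-I in red above AT-II in blue, with dashed lines at the share of all genes (8.84% on AT-I, 3.13% on AT-II). Fibrillar collagens, procollagen folding and the export group have the longest bars, and the lumen chaperones, lectin chaperones and ER-associated degradation genes stand at 0.

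Osteoblast markers moved with the members that rose. The marker counts stand beside 8.84% of all genes called higher and 2.66% lower on AT-I, and 3.13% higher and 0.203% lower on AT-II. Of 11 measured, 10 were higher at day 4 on AT-I and 9 on AT-II, and the mean level of the list lay between 9.03 and 9.75 in AT-I day 4 samples, against 6.31 to 7.22 in AT-I day 2 samples, and between 8.98 and 9.85 in AT-II day 4 samples, against 6.43 to 7.60 in AT-II day 2 samples. Markers of plasma and B cells, another cell type with an abundant ER, passed in 0 of 10 cases on either surface, and their mean level overlapped between days (7.94 to 8.5 in AT-I day 4 samples, 7.90 to 8.61 in AT-I day 2 samples). Of 10 neutrophil markers 1 was lower on AT-I (Csf3r), of 10 macrophage markers 1 was lower on AT-I (Cd14), and of 5 osteoclast markers 2 were higher on AT-I (Ctsk and Atp6v0d2), with 0 called on AT-II in each of these lists. All 5 osteoclast markers nevertheless had positive differences on both surfaces (median 0.73 on AT-I and 0.63 on AT-II). Their days did not overlap, with day 4 higher, in 2 of 5 on AT-I and 4 of 5 on AT-II (11.3% and 8.74% of all genes). The neutrophil list lay between 10.28 and 10.97 at day 4 and 10.58 and 11.23 at day 2 on AT-I. Erythroid, endothelial and skeletal muscle markers passed in 0 cases, and 1 of 5 cartilage markers on AT-I and 2 of 5 on AT-II were higher. The part of cell composition in the members' differences was not tested.

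Between the surfaces no member passed. At day 4, 0 of 43 members passed (0% of all genes, smallest limma adjusted p of any gene 0.913, with 687 genes at an unadjusted p under 0.05), and AT-I minus AT-II differences lay between -0.25 for Herpud1 and 0.17 for Creb3l2, with a median of -0.06 (-0.07 to 0.02 over 12 other settings). No member was without overlap between the surfaces in either direction (0.789% of all genes higher and 1.41% lower). Fkbp10 averaged 10.74 ± 0.13 on AT-I and 10.81 ± 0.25 on AT-II at day 4 (SD, n = 4 each), Sec23a 10.52 ± 0.18 and 10.53 ± 0.10, and Hspa5 11.84 ± 0.13 and 11.90 ± 0.18. The 95% intervals of all 43 members at day 4 lay between -0.83 and 0.58, so differences of that size remain possible for the more variable genes.

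At day 2 again 0 of 43 members passed (0% of all genes, smallest limma adjusted p 0.128). An unadjusted p under 0.05 was found for 4701 of 17245 genes and for 8 of 43 members, a smaller share. Values leaned lower on AT-I in the members and in genes with a mean of at least 6 alike. The members' median difference, AT-I minus AT-II, was -0.22 (-0.24 to -0.07 over 12 other settings), against -0.09 over all genes and -0.24 over genes with a mean of at least 6. In 7 members (Hsp90b1, Dnajb9, Dnajc3, Canx, Atf6, Kdelr2 and Edem1) every AT-I sample was below every AT-II sample, which is 16.3% of members against 11.3% of all genes, and in 0 members was every AT-I sample above (8.83% of all genes). Kdelr2 stood at 10.29, 10.57, 10.62 and 10.58 on AT-I, against 10.69, 10.81 and 10.99 on AT-II, a difference of -0.31 ± 0.12 (adjusted p = 0.138), and Fkbp14 differed by -0.56 ± 0.25 (adjusted p = 0.17). With all 16 arrays counted separately, 3 of 43 members passed at day 2, all lower on AT-I. They were Sec23a by -0.46 (adjusted p = 0.048), Sel1l by -0.38 (adjusted p = 0.0478) and Edem1 by -0.38 (adjusted p = 0.0479). Of all 17245 genes, 2193 were then called, 1041 higher and 1152 lower. That setting counts the near-identical arrays as 2 samples. With array weights 6 of 43 members passed, again all lower on AT-I, among 3713 of 17245 genes called (1713 higher and 2000 lower). In both settings the share of members called was near the share of all genes called lower. Array spread differed in the same comparison, the interquartile range being 2.48 to 2.98 on AT-I and 3.05 to 3.41 on AT-II at day 2. With that range as a covariate, 0 members and 0 genes passed at day 2, as in the main fit, and the all-gene median was -0.03. Because the range did not overlap between the surfaces, this setting cannot tell array spread and surface apart.

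For the difference between the time courses (AT-I minus AT-II) 0 of 43 members passed (0% of all genes, smallest adjusted p 0.924, with 707 genes at an unadjusted p under 0.05). The median over members was 0.17, against 0.03 over all genes and 0.13 over genes with a mean of at least 6. The call for Sec61a1, Sec13, P4ha2 and Ddit3 on AT-I and not on AT-II is not shown to be a difference between the surfaces.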

How the data were processed

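Each sample was hybridised to 1 array. Per the submitters' processing notes, the authors normalized the arrays with RMA in Affymetrix Expression Console, and the deposited values (1.82 to 14.0 per array row) were read as log2 expression, a base inferred from their range. For software versions and genome build, the sources used here name none. Of 29214 rows, 18644 name 1 gene in the platform annotation, and the brightest row of each of 17245 genes was used. List genes were matched by current symbol, with synonyms used only for names that are no current symbol.

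All genes were fitted together with limma 3.58.1 in R 4.3.3 (4 group means, 11 residual degrees of freedom, empirical Bayes with 4.44 prior degrees of freedom), and p-values were adjusted by the Benjamini-Hochberg method over all genes of a comparison, with a threshold of 0.05. The members and lists were chosen with earlier results of these data known. Any member could be named, up to 4 members of a role with the smallest p were given in full, and up to 4 genes of each related list in each time course by smallest p. The model code was tested on simulated data. Per the labels' protocols the samples of a group came from different rats, and the near-identical arrays were counted once. Whether replicate numbers pair the samples is not known. Same-numbered samples of the 2 surfaces had deviations correlated at 0.67, 0.46, -0.17 and 0.20 at day 2 and 0.46, -0.22, 0.39 and 0.02 at day 4. Differently numbered samples reached 0.71 at day 2 (AT-I 3 with AT-II 4) and 0.50 at day 4 (AT-I 2 with AT-II 4). These correlations cannot decide the pairing. Alternatives were other scalings, filters, weights, fits, and leaving out each sample.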

Additional observations from a re-analysis of the deposited data

Results flagged for a closer look

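In 6 of 129 groups of 4 values, 1 sample stood apart from the other 3 by Dixon's 95% criterion, where chance gives about 1 in 20 groups, or 6.5. AT-I day 2 replicate 1 had a Kdelr2 value of 10.29, while its group ranged otherwise over 10.57 to 10.62. Ern1 was 7.67 in the same sample, against 7.40 to 7.44. Creb3l1 was 9.71 in AT-II day 4 replicate 4, against 10.05 to 10.09. P3h1 was 9.36 in AT-I day 4 replicate 1, against 9.0 to 9.05. P4ha2 was 8.13 in AT-I day 4 replicate 3, against 7.20 to 7.34. Pdia3 was 12.26 in AT-II day 4 replicate 2, against 12.28 to 12.29.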

How the results depend on the processing

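Over the 27 other settings no called member changed sign. After centring each array the members' median changed sign on AT-II (to -0.11, from a value near 0) and between surfaces at day 4 (to 0.02, against -0.06), and genes called lower outnumbered those called higher on AT-I (39.7% higher, against 76.9%). Of the values for single members, pooled over all comparisons and mostly of members not called, 5687 kept their side of the threshold, 55 lost a call and 20 gained one. Of the 16 members called on AT-I, 12 kept the call in every setting, against 2 of the 12 called on AT-II. On AT-I the genes called numbered 1983, against 1060 with only the compared groups in the fit and 1314 with the interquartile range as a covariate, and 1158 to 2954 when 1 sample was left out (fewest without AT-I day 4 replicate 4), with 15 to 16 members. On AT-II there were 575, against 1228 with array weights and 334 (7 members) without both day 2 samples numbered 1, and 223 to 694 (4 to 13 members) when 1 sample was left out. With a replicate block, AT-II gave 289 genes and 3 members with the averaged sample left out, and 919 genes with all 16 arrays counted separately. Between surfaces at day 2, 0 of 17245 genes and 0 of 43 members were called. Other settings gave 2193 genes (3 members) with 16 arrays and 3693 (3 members) with 16 arrays and a replicate block. They gave 3713 (6 members) with array weights and 1 after repeated quantile normalization. Leaving out 1 sample gave 0 to 711 (most without AT-I day 2 replicate 2) and 0 members. Whether the numbers pair the samples is not known, so the block is no test of the effect. The causes were not tested. Genes that differ by less than their interval were not detectable with this number of arrays, and probe rows cannot show splicing or protein.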

Other observations

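The members that rose were more variable at day 2 than at day 4. On AT-I, 14 of the 15 had the larger SD at day 2, with a median SD of 0.168 at day 4 and 0.363 at day 2. On AT-II it was 12 of 12, with 0.167 at day 4 and 0.419 at day 2. Among members not called, the SD was larger at day 2 in 18 of 27 on AT-I (0.128 at day 4, 0.180 at day 2) and 15 of 31 on AT-II (0.122 at day 4, 0.139 at day 2).

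The short core CCACG, contained in both ER stress response elements, occurred in 29 of 34 member promoters (85.3%) and in 32.5% of the windows of all genes.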
